A study of Drosophila melanogaster with 10 samples.

Results

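The comparison described here sets embryos labelled as overexpressing the dapCRL4 form of dacapo against embryos labelled as overexpressing the dapPCNA form. It uses 4 of the 10 libraries of the series, 2 per form, and all 10396 of 15422 genes that reached at least 1 RPKM (reads per kilobase of transcript, scaled to the mapped reads of the library) in at least 2 of the 10 libraries. Polyadenylated RNA of whole Drosophila melanogaster embryos of stages 15 to 16, grown at 25 °C, was sequenced in single reads of 50 bases. All 5 genotypes carried the pros-Gal4 driver. The control group carried it with no UAS transgene (pros-Gal4/+), and the others carried it over UAS-dap (wild type), UAS-dap[CRL4], UAS-dap[PCNA] or UAS-dap[CDI], of which the labels call the last 3 stabilized proteins. Each genotype had 2 libraries from independent samples, so p-values measure the spread between such samples. The labels do not give the insertion site of any transgene or the strain background.

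Dacapo belongs to the p21 and p27 family of inhibitors, which in flies binds complexes of Cyclin E and Cdk2 and holds cells out of S phase. Proteins of this family can carry a PIP degron, a short motif that binds PCNA, the sliding clamp of DNA replication. On chromatin-bound PCNA the degron is read by the ubiquitin ligase CRL4 with its substrate receptor Cdt2, and the protein is then destroyed during S phase. In the embryonic nervous system dacapo is known for its part in stopping division as neuroblasts and their daughters leave the cell cycle. The driver prospero-Gal4 takes its name from a gene expressed in that lineage, so the transgenes act in a part of the embryo while the RNA comes from all of it. In such whole-embryo RNA, fewer cells of a type and less RNA per cell cannot be told apart.

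Few genes differed between embryos with the 2 forms. A total of 6 genes were called at an adjusted p under 0.05, which is 0.0577% of the genes tested. Of these, 3 were higher in dapCRL4 (0.0289%) and 3 were lower (0.0289%). Higher in dapCRL4 were CG30148 and CG18661, which have no gene name, and the synaptotagmin gene Syt7. Lower in dapCRL4 were Cyp4p2, which encodes a cytochrome P450, CG10933 (current symbol Dlish), which encodes an SH3-domain protein of the Fat and Dachs growth pathway, and the small nucleolar RNA lola-d. None of them belonged to the 22 lists of cell cycle, DNA replication, ubiquitin ligase, neural, cell type and stress genes described below. Against the control, the same fit called 151 genes in dapCRL4 (1.45%) and 135 in dapPCNA (1.3%), comparisons that share the control libraries.

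The median gene differed by 0.03 between the forms (log2 RPKM, dapCRL4 minus dapPCNA), with quartiles of −0.04 and 0.10. The median absolute difference between the forms, each taken as the mean of 2 libraries, was 0.0777 log2. Between the single replicate libraries of 1 form it was 0.0994 in dapCRL4 and 0.0909 in dapPCNA. Means of 2 libraries vary less than single libraries, so these values do not show that the forms were closer than replicates. The 95% interval of the difference lay inside a 2-fold change in either direction for 9528 genes (91.7%) and inside a 1.5-fold change for 8210 (79.0%). Among the 6955 genes with a mean log2 RPKM over the 10 libraries of at least log2(10), 96.8% had an interval inside 1.5-fold. A total of 144 genes were at least 2-fold apart, of which 3 were called. In 71 of the 144 at least 1 of the 10 libraries of the series was listed at 0, and 101 had a mean under 2 RPKM in both forms.

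**Figure D1:**
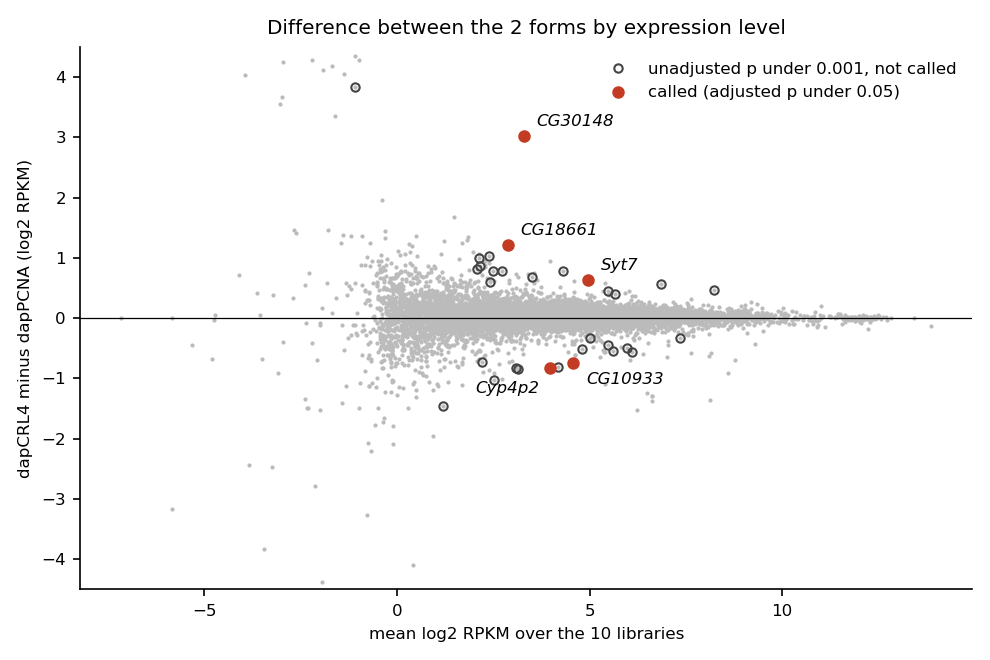
Each point is 1 of the genes tested, with its mean log2 RPKM over the 10 libraries on the x axis and the log2 difference dapCRL4 minus dapPCNA on the y axis. Red points are genes called, open circles genes with an unadjusted p under 0.001 that were not called, and 42 genes beyond 4.5 log2, among them the called small nucleolar RNA lola-d, lie outside the plot. Most genes lie close to 0, and CG30148 stands at 3.02.

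The transgenes encode dap, so its level was read first. The gene dap (FBgn0010316, arm 2R, 9712321 to 9716256, BDGP6 annotation) stood at 81.0 and 75.7 RPKM in dapCRL4 and at 70.7 and 73.3 in dapPCNA. Both dapCRL4 libraries lay above both dapPCNA libraries, by little. The control libraries had 70.5 and 70.7, wild-type dap 85.8 and 83.4, and dapCDI 170 and 156 RPKM. The difference between the 2 forms was 0.12 log2 (SE 0.068, 95% interval −0.03 to 0.27, unadjusted p = 0.107) and was not called. Nor was dap called above the control in either form, with differences of 0.15 in dapCRL4 (adjusted p = 0.319) and 0.03 in dapPCNA (adjusted p = 0.918). A rise of total dap RNA over the control was therefore not shown for either form. The read-out is of total dap reads, in which the endogenous gene and a transgene are not separated, and it says nothing of the protein.

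The other genes in the series title are CycE, which encodes the cyclin that Dacapo inhibits, and ago, whose F-box product leads to the breakdown of Cyclin E. CycE stood at 13.6 and 11.8 RPKM in dapCRL4 and at 11.7 and 12.7 in dapPCNA, so the libraries of the forms overlapped. Its difference was 0.05 log2, with an interval of −0.26 to 0.37. The gene ago had 39.9 and 37.3 RPKM in dapCRL4 and 40.3 and 37.6 in dapPCNA. Its difference was −0.02 log2 (−0.21 to 0.18). Neither was called, and the intervals leave room for changes of under 1.5-fold.

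The genes for the machinery named in the forms' labels were not called. The PCNA gene, listed as mus209, had 85.9 and 86.4 RPKM in dapCRL4 and 84.1 and 91.9 in dapPCNA (difference −0.03, interval −0.29 to 0.23). Cul-4, the scaffold of CRL4, had 27.6 and 27.7 RPKM against 24.5 and 26.4 (0.12, −0.06 to 0.30). The Cdt2 gene, listed as l[2]dtl, had 11.6 and 12.1 RPKM against 10.9 and 11.5 (0.08, −0.20 to 0.37).

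CG30148 showed the widest difference among the called genes with reads in every library. This gene of unknown function (FBgn0050148, arm 2R, 20546595 to 20547658) had 26.6 and 27.6 RPKM in dapCRL4 and 4.11 and 2.72 in dapPCNA. The forms did not overlap, and dapPCNA was close to the control libraries at 2.59 and 1.90 RPKM. Wild-type dap at 22.5 and 21.5 and dapCDI at 22.7 and 18.2 RPKM were near dapCRL4, so dapPCNA was the 1 transgenic genotype at the low level. The difference between the forms was 3.02 log2, or 8.10-fold (SE 0.20, interval 2.56 to 3.47, adjusted p = 0.000539). Against the control, CG30148 rose in dapCRL4 by 3.61 log2 (adjusted p = 2.5e-05), and the difference in dapPCNA was 0.59 (adjusted p = 0.278).

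CG18661 (FBgn0040964, arm 2L, 8997605 to 8998544) had 9.46 and 9.08 RPKM in dapCRL4 and 4.07 and 3.95 in dapPCNA. All 8 libraries of the other genotypes lay between 6.75 and 9.46, so it was dapPCNA that stood apart. The difference was 1.21 log2 (SE 0.12, interval 0.93 to 1.49, adjusted p = 0.0128). Against the control CG18661 fell by 0.86 in dapPCNA (adjusted p = 0.00817) and differed by 0.35 in dapCRL4 (adjusted p = 0.219). Its exons overlap those of Try29F, a trypsin-like protease gene whose own difference was 0.81 (interval 0.15 to 1.46, adjusted p = 0.907). How reads in the shared bases were assigned is not given, so the value of CG18661 is uncertain to that extent. Without dapCRL4 replicate 1 or 2 its adjusted p was above the threshold, at up to 0.126 over all alternatives.

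Syt7 encodes synaptotagmin 7, a calcium sensor of vesicle fusion, and lies on chromosome 4 (FBgn0039900, 278685 to 306481). It had 43.9 and 43.6 RPKM in dapCRL4 against 26.9 and 29.7 in dapPCNA. Here dapCRL4 stood apart, since the control had 28.6 and 27.0, wild-type dap 27.7 and 26.2 and dapCDI 31.0 and 32.0 RPKM. The difference between the forms was 0.63 log2, or 1.55-fold (SE 0.077, interval 0.46 to 0.80, adjusted p = 0.0302). Syt7 rose against the control in dapCRL4 by 0.66 (adjusted p = 0.00244), and the value in dapPCNA was 0.03 (adjusted p = 0.94).

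CG10933, or Dlish (FBgn0034264, arm 2R, 17723309 to 17725056), had 19.3 and 20.8 RPKM in dapCRL4 and 31.7 and 35.8 in dapPCNA. The 6 libraries of the other genotypes held 21.5 to 23.6 RPKM, so dapPCNA was the high genotype. The difference was −0.75 log2 (SE 0.088, interval −0.95 to −0.55, adjusted p = 0.0281). The gene rose in dapPCNA against the control by 0.61 (adjusted p = 0.00817) and stood at −0.14 in dapCRL4 (adjusted p = 0.485). Its exons overlap those of CG10934 and Snx16, so its reads may be shared with them.

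Cyp4p2 (FBgn0033395, arm 2R, 9237512 to 9239831) had 19.1 and 16.3 RPKM in dapCRL4 and 30.7 and 32.4 in dapPCNA. Both forms lay above the control, at 10.7 and 11.1, and above wild-type dap, at 9.49 and 11.1 RPKM. The dapCDI libraries, at 14.5 and 15.7 RPKM, lay above the control too. The difference between the forms was −0.84 log2 (SE 0.11, interval −1.08 to −0.59, adjusted p = 0.0414). The gene rose against the control in both, by 0.69 in dapCRL4 (adjusted p = 0.0144) and by 1.53 in dapPCNA (adjusted p = 0.000137).

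The small nucleolar RNA lola-d was listed at 0 in both dapCRL4 libraries and at 0.344 and 1.25 RPKM in dapPCNA, which the estimated depths put at about 1 and 3 reads. The control had 0.285 and 0.291 RPKM. The call (adjusted p = 0.0414) rests on the deposited floor for genes without reads. With log2(RPKM + 1) or log2(RPKM + 0.1) it was lost, and no fold change is given.

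Most of these calls were lost under some of the 24 alternatives. With the 4 libraries of the 2 forms alone, no gene was called, while 747 (7.19%) had an unadjusted p under 0.05, and CG30148 was nearest with an adjusted p of 0.0554. In the other 23 alternatives CG30148 was called. Syt7, CG10933 and Cyp4p2 each lost their call when either library of the control, of dap or of dapCRL4 was left out, Syt7 also without dapPCNA replicate 1, CG10933 without dapPCNA replicate 2 and Cyp4p2 without either and without dapCDI replicate 1, with adjusted p of up to 0.234, 0.205 and 0.234 over all alternatives, while their differences kept the sign. All 3 were also lost without the mean-variance trend and with the 8 UAS libraries alone. Cyp4p2 was lost in 17 of the 24 alternatives, among them no filter, quantile normalization and median centring.

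**Figure D2:**
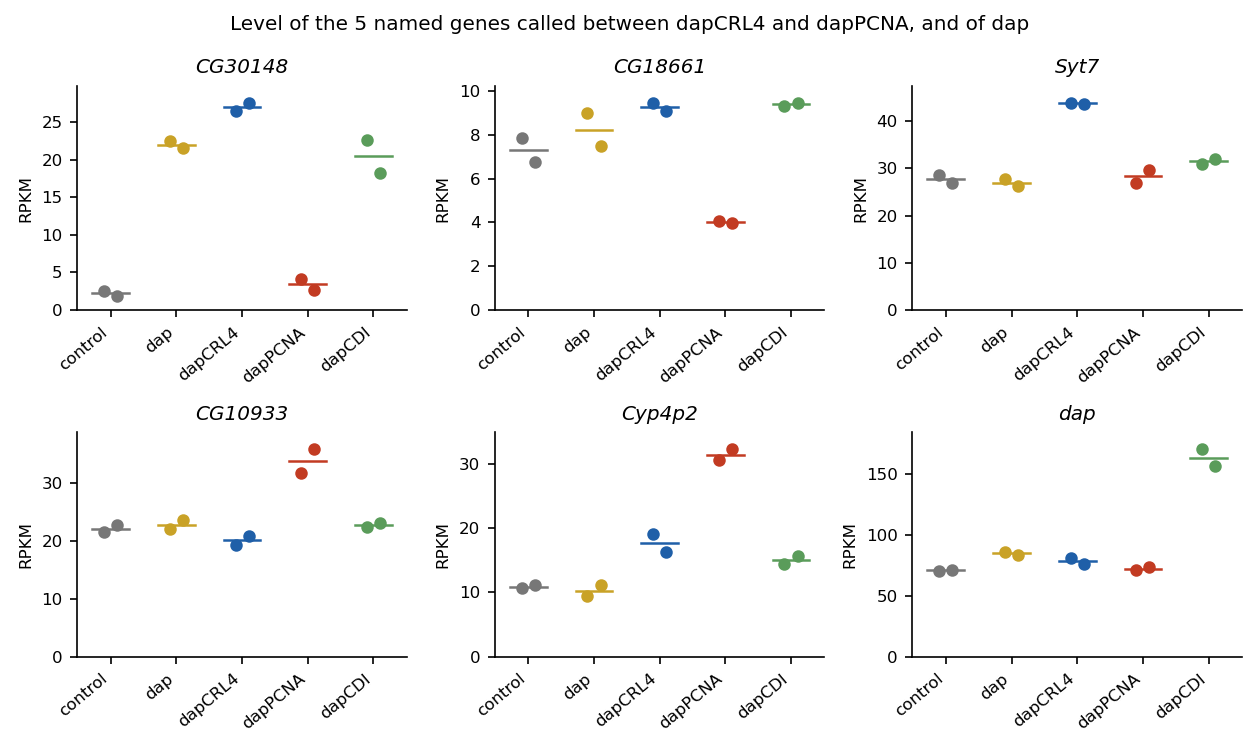
Level in RPKM (y axis, from 0) of the 5 called genes with reads in every library and of dap, by genotype (x axis). Points are single libraries and bars are the mean of 2. CG30148 and CG18661 are low in dapPCNA, Syt7 is high in dapCRL4, CG10933 and Cyp4p2 are highest in dapPCNA, and dap is highest in dapCDI.

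Below the threshold, the genes of lowest unadjusted p included several whose libraries lay well apart. The lowest adjusted p among genes not called was 0.0843, and 5 genes that were not called had one under 0.1. CG17217, a gene of unknown function, had 3.54 and 3.96 RPKM in dapCRL4 and 0.290 and 0.234 in dapPCNA. The other 6 libraries held 0.164 to 0.607 RPKM, so dapCRL4 alone was high. The difference was 3.84 log2 (interval 2.48 to 5.20, adjusted p = 0.0929), and its exons overlap CG6583. CG9510 (Argl), the gene for argininosuccinate lyase, had 6.85 and 7.56 RPKM in dapCRL4 and 3.15 and 3.94 in dapPCNA (1.03, adjusted p = 0.0887). CG18088 had 5.98 and 6.04 against 3.59 and 3.41 RPKM (0.78, adjusted p = 0.0887). CG9510, CG18088 and the called CG18661 lie in this order on arm 2L with gaps of 25.4 and 27.0 kb. Genes inside these gaps were not examined, and such spacing was not taken over all genes.

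The remaining genes that filled the higher side to 12 were CG11170, CG9267 (Hacd2, a dehydratase of fatty acid elongation), nimB5 of the Nimrod family, CG31997 on chromosome 4, CG18343 and CG7787 (strat). Their differences ran from 0.40 to 0.79 log2 with adjusted p from 0.0887 to 0.248, and none was called. In nimB5, for example, dapCRL4 had 13.9 and 15.2 RPKM and dapPCNA 8.38 and 9.74, with dapCDI above both at 19.4 and 17.1. Exons of nimB5 overlap the hemocyte gene He.

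On the lower side, GstE9, a glutathione transferase, had 4.91 and 5.54 RPKM in dapCRL4 and 9.26 and 9.18 in dapPCNA. Control values of 7.87 and 6.48 lay between the forms, which differed by −0.82 log2 (interval −1.09 to −0.55, adjusted p = 0.0843). The exons of GstE9 overlap those of imd. IM1 (BomS1), a Bomanin peptide of the Toll response, had 7.65 and 6.12 RPKM in dapCRL4 and 12.2 and 12.3 in dapPCNA (−0.84, adjusted p = 0.103). Its neighbour IM2 (BomS2) lay the other way, at 41.2 and 42.8 against 23.4 and 32.0 RPKM (0.62, adjusted p = 0.589). The 2 peptides thus did not share a direction, and neither was called.

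The gene skpB, a relative of the SCF ligase subunit skpA, had 1.24 and 1.46 RPKM in dapCRL4 and 4.52 and 3.03 in dapPCNA. Its difference was −1.46 log2 (adjusted p = 0.176), and its exons overlap CG18343, which was on the higher side. The main subunit gene skpA had 396 and 418 against 395 and 403 RPKM. The other genes that filled the lower side were CG15818, CG7763, CG34371 (side-V of the sidestep family), Cyp12d1-p, CG31751 and CG9993, with differences from −1.02 to −0.49 and adjusted p from 0.147 to 0.203.

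The chromosome arms did not share these genes evenly. At an unadjusted p under 0.001 there were 33 genes (0.317%), of which 17 were higher in dapCRL4 (0.164%) and 16 lower (0.154%). Arm 2L held 14 of its 1893 genes, arm 2R 16 of 2109 and chromosome 4 held 2 of 85, which together is 0.783%. Arms 3L and 3R held 0 of their 4497 genes, and X held 1 of 1618. At an unadjusted p under 0.01, which 131 of all genes had (1.26%), the shares were 2.54% on 2L, 2R and 4 together and 0.442% on 3L, 3R and X together. The grouping of the arms was chosen after their values were seen, and it has no test here. All 6 called genes lay on 2L, 2R or 4.

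The arms differed in the same direction under the alternatives tried, with 1.57% to 4.36% of the genes on 2L, 2R and 4 at an unadjusted p under 0.01 against 0.36% to 1.44% on 3L, 3R and X. The size of the contrast depended on single libraries. At an unadjusted p under 0.001 the 2 groups of arms held 14 and 8 genes without dapPCNA replicate 1 and 22 and 5 without dapPCNA replicate 2. They held 17 and 5 without dapCRL4 replicate 1, and 18 and 5 without dapCRL4 replicate 2. The shares of 2L, 2R, 3L and 3R were less uneven in each form against the control, where the libraries of the control are shared. In dapCRL4 against control, where 172 genes (1.65%) had an unadjusted p under 0.001, 3L held 37 and 3R held 56, beside 25 on 2L and 40 on 2R. In dapPCNA against control, with 152 such genes (1.46%), 3L held 32, 3R 47, 2L 29 and 2R 33. X held 11 genes (0.68%) in dapCRL4 and 9 (0.556%) in dapPCNA against control, the lowest share of any arm in each. Chromosome 4 held 2 and 1. Comparisons with the other transgenic genotypes, which share libraries with the one described, are given at the same p. In dapCDI against dapPCNA, with 62 such genes (0.596%), 2L held 22 and 2R 23, beside 3 on 3L, 7 on 3R and 4 on X. In dapCDI against dapCRL4, with 39 (0.375%), 2L held 11 and 2R 17, beside 1 on 3L, 6 on 3R and 2 on X. In dapCRL4 against wild-type dap, with 89 (0.856%), 2L held 24 and 2R 32, beside 14 on 3L, 12 on 3R and 3 on X. In dapPCNA against wild-type dap, with 177 (1.7%), 2L held 46 and 2R 39, beside 40 on 3L, 31 on 3R and 15 on X. Higher counts on each arm of chromosome 2 than on 3L, 3R or X were thus found in the first 3 of these as well, and not in the last. Chromosome 4 held 1, 2, 3 and 4 such genes in these comparisons, in the order given. Of the 33 genes, 13 lay within 100 kb of another of them, among them skpB and CG18343, whose exons overlap. The same share was not taken over all genes, so the count is not read as clustering. No called gene lay within 100 kb of another called gene. With no insertion site or background chromosome in the labels, the form of the protein, the insertion and the strain cannot be told apart in any of the differences above.

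**Figure D3:**
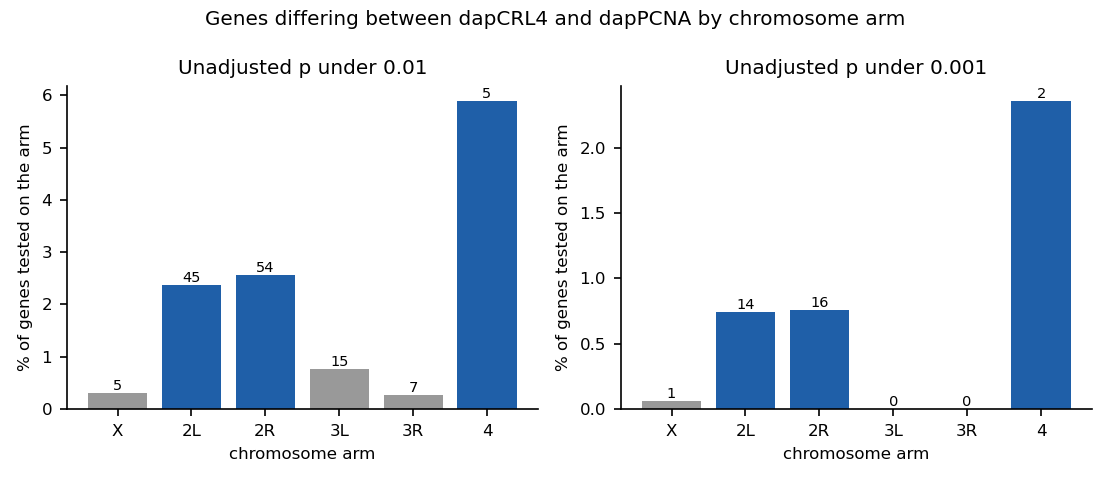
Share of the genes tested on each chromosome arm (y axis, percent, from 0) with an unadjusted p under 0.01 (left) and under 0.001 (right) between dapCRL4 and dapPCNA. Numbers above the bars count genes, and blue marks 2L, 2R and 4, which hold 32 of the 33 genes in the right panel, and 14 of 22 without dapPCNA replicate 1.

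Genes that earlier results of these data had shown to differ from the control were then compared between the forms. They were chosen with those results known, so neither their distance from the control nor the direction the 2 forms share supports anything new. All 11 were called against the control in both forms, and none was called between the forms. CG31219 had 12.3 and 12.5 RPKM in dapCRL4 and 12.9 and 11.8 in dapPCNA, above the control at 0.935 and 0.839. Its difference between the forms was 0.00 log2 with an interval of −0.25 to 0.26. CG34437 had 15.8 and 15.8 against 11.6 and 17.5 RPKM (0.15, −0.22 to 0.51). The pigment gene y had 2.69 and 2.51 against 2.18 and 2.89 RPKM (0.05, −0.61 to 0.71), an interval that also holds a 1.5-fold change.

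MtnA, a metallothionein, had a difference of 0.09 (−0.14 to 0.32). PH4alphaSG2, a prolyl hydroxylase gene of the salivary gland, had 23.2 and 22.2 against 24.8 and 25.7 RPKM (−0.15, −0.37 to 0.06). CG11700 and CG8100, lower than the control in both forms, differed by 0.10 (−0.69 to 0.88) and 0.11 (−0.47 to 0.70). For these low genes the intervals are wide, and a moderate difference was not detectable with 2 libraries per form.

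The genes of cell division and neural precursors in that set had intervals that included 0. Top2, topoisomerase 2, had 21.4 and 20.1 RPKM in dapCRL4 and 18.4 and 18.4 in dapPCNA, both under the control at 32.5 and 29.3. The difference between the forms was 0.17 (−0.02 to 0.37), and dapCRL4 lay above dapPCNA in all pairs of libraries. The kinesin gene pav, needed for cytokinesis, had 2.13 and 2.37 against 1.93 and 2.27 RPKM (0.10, −0.25 to 0.46). The kinetochore gene Mis12 had 1.84 and 1.38 against 1.54 and 1.35 RPKM (0.15, −0.36 to 0.65). The neuronal precursor factor nerfin-1 had 20.04 and 17.8 RPKM in dapCRL4 against 17.6 and 17.0 in dapPCNA (0.13, −0.11 to 0.37).

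**Figure D4:**
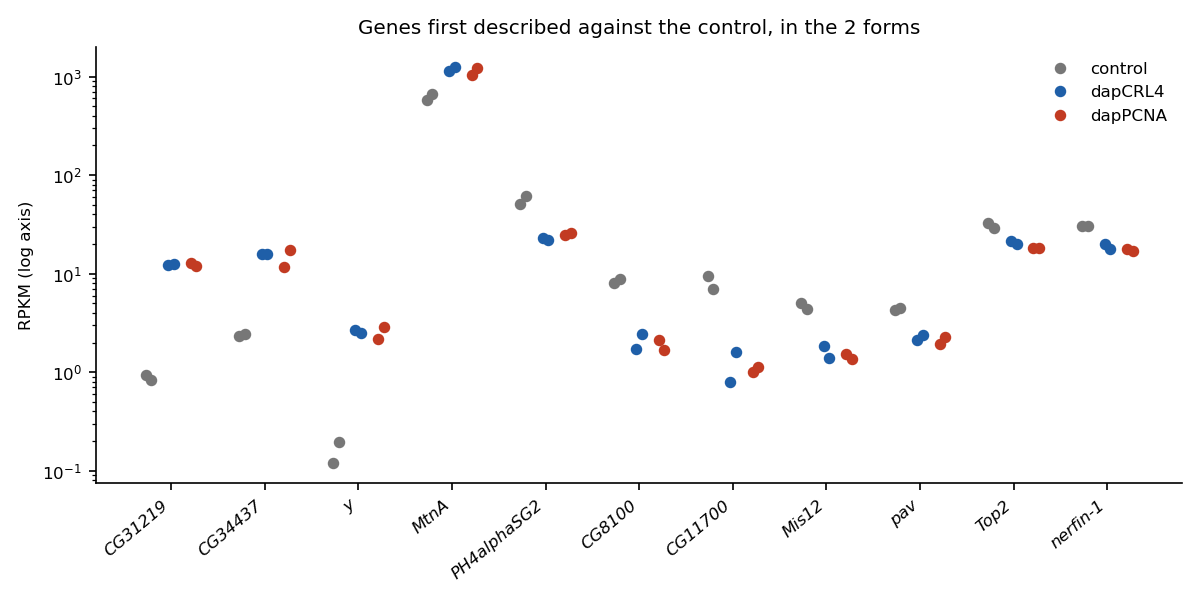
Level of the 11 genes (x axis) in RPKM on a log axis, in the control, dapCRL4 and dapPCNA libraries. Points are single libraries. In each gene the points of the 2 forms lie together and away from the control. The genes were chosen for their distance from the control in earlier results, so this placing is not a new result.

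Of the 81 mitosis genes tested, of 84 listed, none was called between the forms. At an unadjusted p under 0.05, 6 were higher in dapCRL4 and none lower, where 334 of all genes (3.21%) were higher and 158 (1.52%) lower. A total of 60 members (74.1%) had a difference above 0, against 62.6% of all genes, and their median difference was 0.10 against 0.03. In 30 members both dapCRL4 libraries lay above both dapPCNA libraries and in 6 the reverse held, where 26.9% and 11.3% of all genes did so. The median member stood at −0.23 log2 against the control in dapCRL4 and at −0.33 in dapPCNA. The median between the forms lay between 0.05 and 0.11 in all alternatives. The lean above 0 was not particular to this list. It was also seen in 45 of 60 DNA replication genes and 24 of 33 cyclins, kinases and regulators of S-phase entry. So it was in 24 of 31 Cullin ligase genes and 16 of 20 apoptosis genes. In these 4 lists, in that order, the libraries lay apart upward in 20, 13, 12 and 8 genes and downward in 2, 1, 2 and 2. The neuropeptide and stress lists leaned the other way, with 7 of 26 and 8 of 37 above 0.

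Among the mitosis genes, ial (aurB, the Aurora B kinase of the chromosomal passenger complex) had the lowest p. It had 4.32 and 4.13 RPKM in dapCRL4 and 2.27 and 2.52 in dapPCNA, and 5.06 and 4.80 in the control. The forms did not overlap, and dapPCNA was the lowest of the 5 genotypes. The difference was 0.82 log2 (interval 0.44 to 1.21, unadjusted p = 0.000815, adjusted p = 0.283). Its partner borr, which encodes Borealin, had 4.92 and 5.37 against 3.99 and 3.89 RPKM (0.38, 0.03 to 0.74). The gene Incenp, for another subunit of that complex, had 10.4 and 10.1 against 10.7 and 11.2 RPKM (−0.10, −0.29 to 0.09). Det, for the survivin subunit, differed by 0.28 (−0.31 to 0.88).

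SAK, the kinase of centriole duplication, had 3.70 and 4.54 RPKM in dapCRL4 and 2.61 and 3.09 in dapPCNA (0.53, 0.17 to 0.89). The mitotic kinase cdc2 (Cdk1) had 17.0 and 16.5 against 12.5 and 15.1 RPKM (0.28, 0.02 to 0.55). The condensin gene barr differed by 0.22 and CycB3, a mitotic cyclin, by 0.26. CycA differed by 0.16 (−0.04 to 0.36) and CycB, with 13.4 and 12.4 against 12.1 and 10.7 RPKM, by 0.19 (−0.08 to 0.45). For the phosphatase gene stg, which triggers entry into mitosis, the values were 30.0 and 28.1 against 27.2 and 26.7 RPKM (0.11, −0.07 to 0.29).

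None of the 60 DNA replication genes was called or had an unadjusted p under 0.05, which 4.73% of all genes had. The intervals of all 60 genes lay inside a 2-fold change. Their differences ran from −0.24 to 0.25 with a median of 0.06. RPA2, of the protein that coats single-stranded DNA, had 20.6 and 17.9 RPKM in dapCRL4 and 16.0 and 16.4 in dapPCNA (0.25, −0.03 to 0.52), and CG15220 (RPA3) of the same complex differed by 0.18. The kinase gene l[1]G0148 (Cdc7), which fires origins, had 10.3 and 8.47 against 10.9 and 11.2 RPKM (−0.24, −0.53 to 0.05). Mcm6, of the replicative helicase, differed by 0.12 (−0.05 to 0.28).

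Of the 33 cyclins, kinases and regulators of S-phase entry, none was called and 2 were higher at an unadjusted p under 0.05. Over all genes, 3.21% were higher at that p. Rbf2, of the retinoblastoma family, had 2.35 and 2.13 RPKM in dapCRL4 and 1.55 and 1.76 in dapPCNA (0.44, 0.03 to 0.86). CycC, a cyclin of the Mediator kinase module, had 26.1 and 27.6 against 23.6 and 23.6 RPKM (0.19, 0.01 to 0.36). The gene lin-52, of the repressor complex that holds E2F targets, differed by 0.25 (−0.06 to 0.56). The kinase cdc2c (Cdk2), the partner of Cyclin E, had 19.6 and 19.98 against 18.2 and 16.8 RPKM (0.18, −0.06 to 0.42).

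Of the 31 Cullin ligase subunits and degron readers, skpB was the 1 member at an unadjusted p under 0.05, and the median was 0.04. Of 43 DNA damage and repair genes, Gadd45 alone was past that p, at 14.7 and 14.2 RPKM in dapCRL4 and 18.6 and 17.3 in dapPCNA (−0.31, −0.52 to −0.10). Of 20 apoptosis genes it was skl, an activator of cell death, at 42.9 and 45.9 against 36.3 and 35.8 RPKM (0.30, 0.09 to 0.51). None of these was called, and 4.73% of all genes had an unadjusted p under 0.05.

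No neural gene on the lists was called. Of 47 neuroblast and progenitor factors, 2 were higher and 1 lower at an unadjusted p under 0.05. Over all genes, 3.21% were higher and 1.52% lower at that p. The list's median of 0.03 equalled that of all genes. Hey, a target of Notch in newborn neurons, had 4.95 and 5.14 RPKM in dapCRL4 and 3.66 and 3.89 in dapPCNA, both under the control at 8.03 and 8.08. The forms differed by 0.42 (0.17 to 0.66, adjusted p = 0.572). The Notch regulator spdo had 8.56 and 8.08 against 6.93 and 6.17 RPKM (0.35, 0.11 to 0.59), and the polarity gene par-6 had 33.0 and 29.8 against 35.1 and 36.7 (−0.20, −0.38 to −0.01). Of 45 patterning genes 1, eya, was past that p (0.25), and of 55 neuronal and synaptic genes none was, with a median of 0.00. Syt7 is not on that list. The immune list, with 20 of 36 members tested, had a median of −0.01, with IM2 higher and IM1 lower at an unadjusted p under 0.05.

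Of 26 neuropeptide and peptidergic genes, Akh was higher (0.50) and Dh31 lower (−0.71) at an unadjusted p under 0.05. Over all genes, 3.21% were higher and 1.52% lower at that p. A total of 7 members (26.9%) had a difference above 0, against 62.6% of all genes. The median was −0.06 against 0.03 for all genes. Dh31 had 1.61 and 0.859 RPKM in dapCRL4 and 1.91 and 1.92 in dapPCNA, and its difference was −0.25 without dapCRL4 replicate 2.

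Defining markers of the cell types an embryo holds were compared between the forms where they passed the filter. Of 34 markers of neurons, glia, neuroblasts, muscle, hemocytes, fat body, epidermis, trachea, salivary gland, germ cells, midgut and yolk, 31 passed the filter. None of them had an unadjusted p under 0.05, their differences ran from −0.21 to 0.19, and 28 intervals lay inside 1.5-fold. The hemocyte gene Hml and the yolk genes Yp1 and Yp2 did not pass the filter and were not tested. The filter covers all 10 libraries, so it does not show presence or absence in either form. The lists of glia, muscle, cuticle, salivary gland with trachea, hemocytes, fat body with gut, germ cells, ecdysone response, and sex and dosage compensation had medians between −0.02 and 0.02. They held 0 to 3 members each at an unadjusted p under 0.05, which 4.73% of all genes had. Among 10 markers of transgenes and strains, Cyp12d1-p and Adh were lower in dapCRL4 at that p, as were 1.52% of all genes. Adh had 480 and 468 against 534 and 594 RPKM (−0.25). The other 8 markers had a difference above 0, none of them at that p. The median of this list was 0.10, against 0.03 for all genes.

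**Figure D5:**
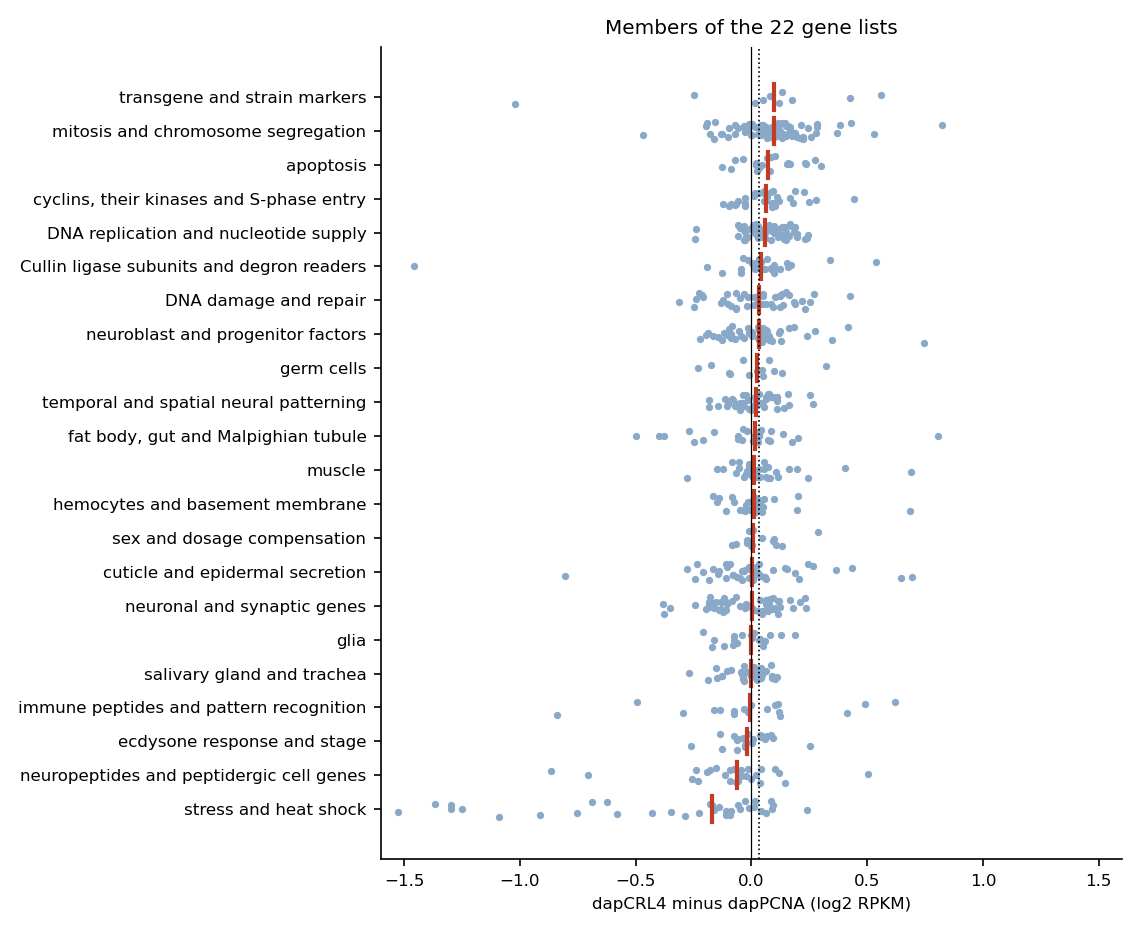
Log2 difference dapCRL4 minus dapPCNA (x axis) of every tested member of the 22 gene lists (y axis, ordered by median). Points are genes, red bars list medians, the solid line is 0 and the dotted line the median of all genes, and 4 points lie beyond 1.6 log2. The medians lie within 0.10 of 0 in 21 lists, and stress and heat shock is lowest at −0.17.

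The stress and heat shock list had the lowest median, −0.17, against 0.03 for all genes. Of its 37 tested members, 8 (21.6%) lay above 0, against 62.6% of all genes, and 1 library moved with the list. Hsp70Bc, a heat-inducible chaperone, had 406 and 66.0 RPKM in dapCRL4 and 379 and 471 in dapPCNA. The low value was that of dapCRL4 replicate 2, while replicate 1 lay among the dapPCNA libraries. The small heat shock gene Hsp26 had 387 and 157 against 387 and 557 RPKM, and Hsp68 had 55.8 and 14.7 against 55.6 and 66.9. Without dapCRL4 replicate 2 the difference of Hsp70Bc moved from −1.37 to −0.06, that of Hsp26 from −0.91 to −0.26 and that of Hsp68 from −1.09 to −0.13. The list's median was −0.10 without that library and −0.27 without dapCRL4 replicate 1.

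Hsp83, the fly Hsp90, was the member of lowest p on the lower side next to DnaJ-1, at 591 and 482 RPKM in dapCRL4 and 667 and 775 in dapPCNA (−0.43, −0.84 to −0.02, adjusted p = 1.00). Heat shock genes also varied between the replicates of other genotypes, as in Hsp70Bc, whose control libraries had 553 and 205 RPKM and whose dapCDI libraries had 627 and 231. GstE1, a glutathione transferase on the same list, was higher in dapCRL4 at 166 and 173 against 143 and 144 RPKM (0.24, 0.05 to 0.43). Several Hsp70 genes are near-identical copies, so their values are uncertain.

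Over all genes, 67.9% of the 492 genes (4.73%) at an unadjusted p under 0.05 were higher in dapCRL4. That share was 46.6% with each library centred on its median, 54.7% with quantile normalization, 52.0% with the exon length correction and 46.9% without dapCRL4 replicate 2. Across 10202 genes with an exon length, the difference followed that length weakly (Spearman's rho −0.173 over genes, which are not independent replicates). The median was 0.06 in the 2042 shortest genes, of at most 1044 exon bases, and 0.00 in the 2041 longest, of at least 3960. Between the 2 replicates of 1 form the same relation was stronger, with rho 0.341 in dapCRL4 and 0.268 in dapPCNA.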

How the data were processed

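The authors deposited log2 RPKM values of 15422 genes, on genome build BDGP 6 per the submitters' processing notes. For the aligner, the counting tool and the strand setting, the sources used here name nothing. Genes without reads carry a floor of −9.10916 and are listed here at 0. Counted reads, estimated from whole-number ratios of low genes, were 19.9 and 22.5 Mreads (megareads) in dapCRL4 and 21.4 and 17.7 in dapPCNA, where the labels give a sequencing range of 20.7 to 43.4 Mreads. The deposited values were fitted without scaling in limma 3.58.1 (R 4.3.3) with a mean-variance trend and 1 mean per genotype over all 10 libraries. The contrast was dapCRL4 minus dapPCNA, two-sided, with Benjamini-Hochberg adjustment over 10396 genes, calls at an adjusted p under 0.05 and 95% intervals. The script was tested on simulated data.

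Names were matched to the BDGP6 Ensembl annotation for positions and exon lengths: 11819 were current symbols, 3322 older ones, and 281 had no unique match. Of the genes tested, 3972 have exons that overlap another gene.

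The comparison, the 22 gene lists and the rule for named genes were chosen with earlier results of these data known. The rule took dap, CycE and ago, the called genes, the genes of lowest p up to 12 per direction, and the 4 lowest p in the mitosis, replication and cyclin lists. Other genes were named after their values were seen. Replicates 1 and 2 were not treated as pairs: the correlation of their differences was 0.0275 between the forms and −0.28 to 0.38 over all pairs of genotypes. The 24 alternatives changed the pseudocount, filter, scaling, variance model, libraries and replicate block.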

Additional observations from a re-analysis of the deposited data

How the results depend on the processing

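Against 6 genes called between dapCRL4 and dapPCNA, the count was 12 with no filter, 17 with array weights, 0 with the 4 libraries of the forms alone, 2 with the 8 UAS libraries and 3 with a replicate block, and it ranged from 1 to 10 when each library in turn was left out. It was 1 without dapCRL4 replicate 1, 2 without either control, 3 without either dap library, 9 and 10 without dapPCNA 1 and 2, 5 without dapCRL4 replicate 2, and 5 and 8 without dapCDI 1 and 2. The remaining settings gave 4 to 9. A like or higher count did not mean the same genes. Without dapPCNA replicate 1, dapPCNA replicate 2 or dapCRL4 replicate 2, several of the 6 genes lost their call. Other genes, small nucleolar RNAs among them, were called instead. The block with the exon length correction gave 5. Syt7, Cyp4p2 and snoRNA lola-d lost their call under the block. The replicate numbers did not pair all genotypes, with correlations of 0.38 between dap and dapCRL4, 0.22 between control and dapCRL4 and 0.0275 between the forms, so such a loss is not read as a weaker effect.

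Differences near 0 changed sign without a call. With quantile normalization, CG31219 stood at −0.0385 and y at −0.00458, with median centring CG31219 at −0.0369 and skpA at −0.00927, and with the exon length correction, also with the replicate block, CG31219 at −0.0494 and skpA at −0.0141. When each library was left out, CycE ranged from −0.0454 to 0.15, ago from −0.0639 to 0.0339, CG31219 from −0.0591 to 0.0619, y from −0.15 to 0.25, MtnA from −0.0199 to 0.20, CG11700 from −0.40 to 0.60, CG8100 from −0.15 to 0.37, CG34437 from −0.15 to 0.44, Det from −0.11 to 0.68, Mis12 from −0.0589 to 0.35, pav from −0.0170 to 0.22, skpA from −0.00981 to 0.0678 and mus209 from −0.0939 to 0.0336. The cause was not tested. With fewer libraries the number of calls fell in some fits and rose in others. Where 1 library of a genotype remained, it took the spread of the other genotypes. With 2 libraries per form, the median half-width of the unadjusted 95% interval was 0.24 log2, and the smallest difference called was 0.63 (Syt7).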
